A study of Mus musculus with 6 samples.

Results

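Glycosaminoglycan chain synthesis and sulfation was described here through 42 genes, chosen by symbol from the 23351 genes of a table of RNA levels in mouse chondrocytes. The 42 genes encode the enzymes that supply the sugar and sulfate donors, build the linker to the core protein, extend chondroitin and heparan chains, sulfate and epimerize them, and remove sulfate again outside the cell. Each symbol was found once in the table. The values came from RNA sequencing of primary chondrocytes, the cells that make cartilage matrix. There were 3 libraries labelled Uhrf1 cKO, a conditional knockout, and 3 labelled Control. The Uhrf1 protein recognizes newly replicated DNA that is methylated on a single strand and brings in Dnmt1, which copies the methylation. Cells of both groups came from knee cartilage of C57BL/6 mice at postnatal day 3, were freed with collagenase, and were given 100 ng/ml of recombinant human BMP-2 at confluence for 24 hours before RNA was taken, so no untreated cells entered the comparison. The sources used here do not name the Cre driver of the knockout or the genotype of the Control mice. The question was how these enzyme genes differ between chondrocytes of the Uhrf1 cKO and Control groups.

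Glycosaminoglycans are long unbranched sugar chains that hang on proteoglycan core proteins and carry negative charge through their sulfate and carboxyl groups. In cartilage, the chondroitin sulfate chains of aggrecan hold the water that lets the tissue resist compression, while heparan sulfate chains on syndecans, glypicans and perlecan bind growth factors such as FGFs, BMPs and hedgehog proteins. Both kinds of chain begin with the same linker, xylose followed by galactose residues and glucuronic acid on a serine of the core protein, and the next sugar decides which chain is made. Sulfate is always taken from the activated donor PAPS. Loss of several of these enzymes causes chondrodysplasia, dwarfism or exostoses in humans or mice.

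Promoter sequence is shown for 3 members that were lower in cKO cells, because Uhrf1 acts on methylation at CpG sites. The windows are the 250 bases before the start of each gene, from RefSeq on build GRCm38.p6, with each CpG in capitals. Papss2 and Ugdh have the highest mean RNA levels of all members, and Extl1 has the fewest CpGs among the lower members that matched. Papss2 lies at chr19:32595465-32595714 on the plus strand with 24 CpGs, Ugdh at chr5:65435843-65436092 on the minus strand with 22, and Extl1 at chr4:134372548-134372797 on the minus strand with 8.
Papss2: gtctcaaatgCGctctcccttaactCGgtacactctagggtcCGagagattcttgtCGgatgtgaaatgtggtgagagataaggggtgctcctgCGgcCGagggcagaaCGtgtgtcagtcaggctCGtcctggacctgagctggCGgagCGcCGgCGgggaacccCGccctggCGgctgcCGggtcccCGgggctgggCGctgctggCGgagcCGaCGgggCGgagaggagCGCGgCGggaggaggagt
Ugdh: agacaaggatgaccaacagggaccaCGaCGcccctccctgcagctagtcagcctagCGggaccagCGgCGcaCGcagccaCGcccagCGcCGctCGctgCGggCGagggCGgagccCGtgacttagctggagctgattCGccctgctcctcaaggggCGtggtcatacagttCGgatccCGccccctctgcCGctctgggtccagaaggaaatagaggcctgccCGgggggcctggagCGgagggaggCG
Extl1: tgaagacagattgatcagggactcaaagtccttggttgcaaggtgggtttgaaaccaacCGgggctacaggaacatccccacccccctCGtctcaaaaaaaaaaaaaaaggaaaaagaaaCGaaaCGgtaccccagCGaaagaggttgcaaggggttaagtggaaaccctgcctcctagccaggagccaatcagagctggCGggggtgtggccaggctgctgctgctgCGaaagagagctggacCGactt
DNA methylation itself was not measured in these files. RefSeq windows of 300 bases, 250 before to 50 after the start, were matched for 34 of the 42 members, the others being Chsy3, Csgalnact1, Ext1, Extl3, Impad1, Ndst1, Sulf1 and Xylt1. The dinucleotide CG, which reads the same on both strands, occurred 8 to 48 times per window among the members, with a median of 23. At least 10 CGs were found in 32 of the 34 windows (94.1%), against 80.0% of the 11386 windows of all tested genes and 43.5% of all 32851 RefSeq windows. These sets are not fully alike. The 34 include 5 members that were not tested, all 5 with at least 10 CGs. For members only, the window nearest the deposited start was kept. The 7 matched members that were lower in cKO cells had 9 to 30 per window, median 27, the 30 being that of Glce. Ext1 and Sulf1, the members that were higher, had no matched window to set beside them. For 27 of the 34 the RefSeq start was also the start in the deposited table, and for Chst15, Glce and Hs3st3a1 it lay more than 500 bases away. For Glce the distance was 52003 bases, so its window is not at the start of the measured entry.

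Values were FPKM, fragments scaled to transcript length and to library size, which can be compared between genes. Between 11551 and 11635 genes reached 1 FPKM in each cKO library and between 11233 and 11268 in each Control library. Absolute depth was unknown. Uhrf1 itself (chr17:56303337-56323486) stood at 3.22, 3.17 and 2.73 FPKM in cKO libraries 1, 2 and 3, against 28.2, 22.9 and 30.6 FPKM in Control libraries 1, 2 and 3. It was 8.96-fold lower in cKO cells, with RNA still present (log2 difference -2.80, SE 0.132, limma adjusted p = 1.7e-06). Whether the libraries of a group came from different animals or cultures is not stated. The p-values therefore cover only the spread among these 6 libraries, part of which may be technical. Y-linked Ddx3y was read at 22.2, 0 and 0 FPKM in cKO libraries 1 to 3, against 31.6, 0 and 24.3 FPKM in Control libraries 1 to 3. X-linked Xist stood at 5.58, 77.9 and 96.3 FPKM in cKO libraries 1 to 3, against 0.0526, 82.4 and 0.112 FPKM in Control libraries 1 to 3. Both sex-linked transcripts thus differed within each group, so the libraries of a group were not all repeats of the same sample. Their balance also differed between the groups, and cKO 1 had RNA of both. A prefix in the library names differs between all cKO and all Control libraries, and what it marks cannot be told apart from genotype. In bulk RNA, fewer cells of a type and less RNA per cell cannot be told apart either.

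Cells of other types were looked for by their markers. Chondrocyte markers were present, but their 12 genes summed to 7550 to 8418 FPKM in cKO libraries, against 11138 to 14715 FPKM in Control libraries. Col2a1 held the largest part of these sums, 4524 to 4775 FPKM in cKO and 5767 to 8262 FPKM in Control libraries. Limma called 9 of the 12 lower, where it called 7.96% of all tested genes lower and 9.81% higher. The authors' deposited table also marked 9 lower, with Col9a2 (q = 0.00397) in place of Col2a1 (q = 0.457). Of 14 skeletal muscle markers 11 were tested and all 11 were called higher, with sums of 131 to 218 FPKM in cKO libraries and 7.20 to 8.93 FPKM in Control libraries. Those muscle sums did not overlap. The authors' deposited table tested 9 of the 14 and marked 5 higher. For macrophages and leukocytes 6 of 10 markers were tested and 1, Fcer1g, was called higher by limma. The authors' deposited table did not mark Fcer1g (q = 0.335) but marked Lyz2 as lower (q = 0.00052). These 10 genes summed to 28.5 to 38.9 FPKM in cKO libraries and 10.4 to 50.4 FPKM in Control libraries, with Ptprc at most 0.131 and Itgam at most 0.222 FPKM in any library. Fibroblast and superficial zone markers summed to 1758 to 1928 FPKM in cKO libraries and 1468 to 1906 FPKM in Control libraries, with 1 of 9 tested called lower and 2 called higher. That number of calls depended on the setting: the authors' deposited table marked 3 lower and 2 higher, 5 were called with replicate number as a block or without Control 2, and 1 at an adjusted p under 0.01. None of 8 endothelial markers reached the level for testing, and Emcn and Tie1 were at 0 in every library. The part of the muscle and chondrocyte marker shifts in the enzyme differences below was not tested.

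Most of the pathway was expressed. Of the 42 genes 37 reached 1 FPKM in at least 2 libraries and were tested with limma on log2(FPKM + 1), with p-values adjusted over all 11911 genes tested. The call threshold was an adjusted p of 0.05. The 5 that were not tested are 3-O-sulfotransferases of heparan (Hs3st1, Hs3st3a1, Hs3st3b1) and the chondroitin sulfotransferases Chst13 and Chst15. In mean FPKM over the 6 libraries, Papss2 led with 201, a level above 97.2% of tested genes, followed by Ugdh at 149.5. Sulf1 at 65.0, Chst11 at 63.4, Uxs1 at 63.1, Ext2 at 62.6 and Hs6st2 at 59.96 FPKM came next, and their ranges over the 6 libraries overlap. Chst3, at 1.43 FPKM, was the lowest of the 37 tested members.

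**Figure D1:**
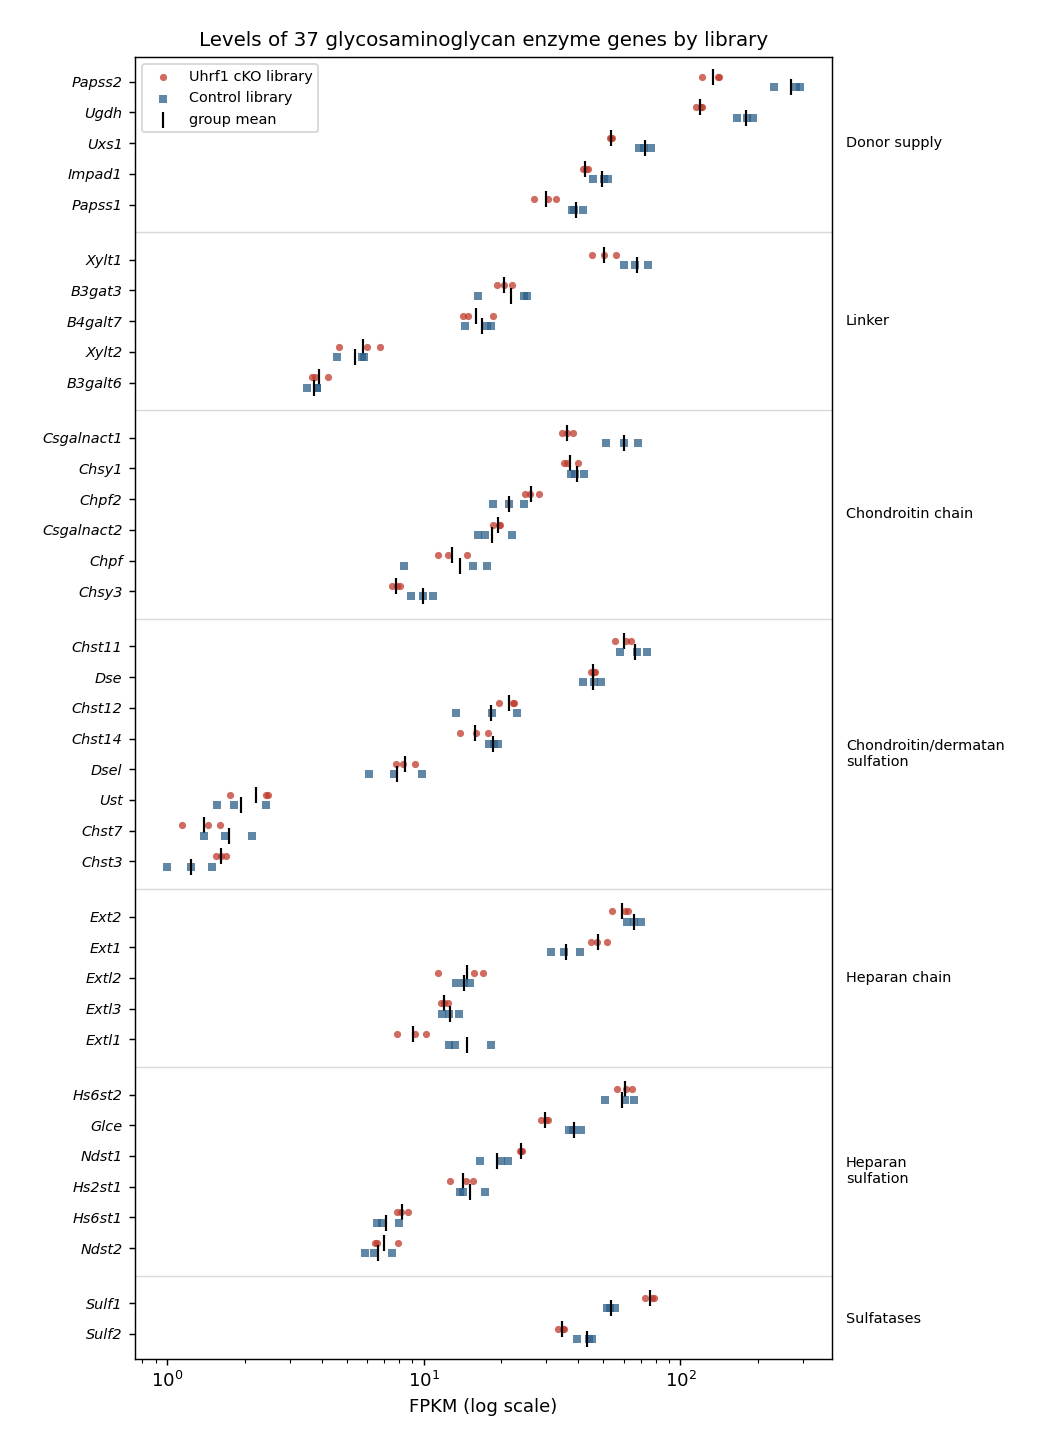
RNA level of the 37 tested enzyme genes in FPKM on a log axis, grouped by step of the pathway. Each circle is a cKO library, each square a Control library and each black tick a group mean. The donor genes Papss2 and Ugdh lie farthest right, and the cKO circles of Papss2, Ugdh, Uxs1 and Csgalnact1 all lie left of the Control squares.

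In cKO cells 9 of the 37 tested genes were called lower, namely Ugdh, Uxs1, Papss1, Papss2, Xylt1, Csgalnact1, Extl1, Glce and Sulf2, and 2 were called higher, Ext1 and Sulf1. Among all tested genes 7.96% were called lower and 9.81% higher. The other 26 members were not called. On the log2(FPKM + 1) scale 21 members had a difference below 0 and 16 above, with a median of -0.07, against a median of 0.000386 for all tested genes. In 12 members all cKO libraries lay below all Control libraries, where 17.5% of all tested genes did so. In 5 members all cKO libraries lay above, where 18.4% of all tested genes did so, and in 20 the groups overlapped. Differences were moderate: Papss2 fell 2.005-fold and the other 10 called genes changed by less than that. The lower members called numbered 5 without cKO 2, cKO 3 or Control 2, and the higher members 1 when any library but Control 3 was left out. Calls over all genes fell as well, to 503 to 931 lower and 765 to 1095 higher, from 948 and 1168 with all 6 libraries.

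**Figure D2:**
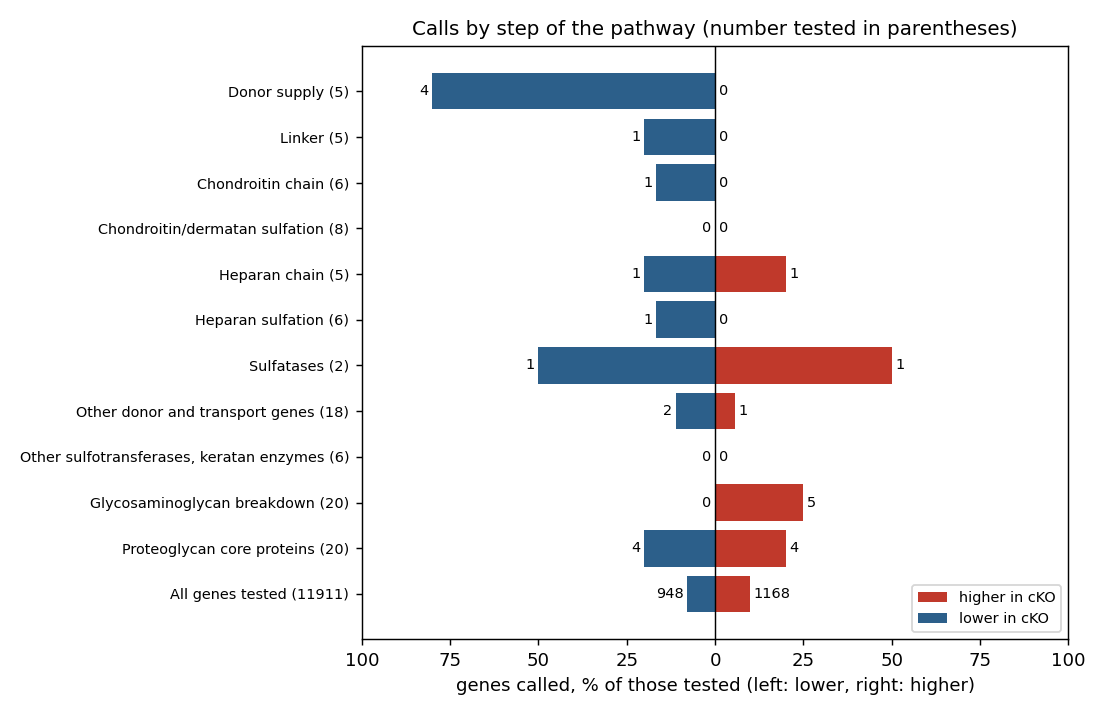
Share of tested genes called lower (bars to the left) and higher (bars to the right) in cKO libraries, in percent, for each step of the pathway, for related gene lists and for all tested genes. Numbers at the bars are genes called, and numbers in parentheses are genes tested. Donor supply has 4 of 5 genes called lower, chondroitin and dermatan sulfation has 0 of 8 called, and glycosaminoglycan breakdown has 5 of 20 called higher.

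Donor supply held the most calls, with 4 of 5 genes lower and 0 higher in cKO cells. Limma called 7.96% of all tested genes lower and 9.81% higher. Papss2, the main PAPS synthase of cartilage, whose loss gives the short-limbed brachymorphic mouse, stood at 139.6, 121 and 141 FPKM in cKO libraries, against 282, 293 and 231 FPKM in Control libraries. All cKO values lay far below all Control values. Papss2 averaged 134 ± 11.1 FPKM in cKO and 269 ± 33.4 FPKM in Control libraries (SD, n = 3 each), a log2 difference of -0.99 (SE 0.105, 95% interval -1.23 to -0.76, limma adjusted p = 0.000259). Its paralog Papss1 stood at 32.6, 26.98 and 30.5 FPKM in cKO libraries, against 37.9, 41.5 and 38.5 FPKM in Control libraries. The groups did not overlap, and Papss1 fell 1.31-fold (log2 difference -0.38, SE 0.0955, adjusted p = 0.023). Ugdh oxidizes UDP-glucose to UDP-glucuronic acid, the acidic sugar donor of both chain types. It stood at 121, 121 and 115 FPKM in cKO libraries, against 181, 166 and 192 FPKM in Control libraries, with a wide gap between the groups. Ugdh fell 1.51-fold, to 119 ± 3.26 FPKM in cKO libraries against 179.9 ± 13.1 FPKM in Control libraries (SD, n = 3 each; log2 difference -0.59, SE 0.0776, adjusted p = 0.000905). Uxs1 turns UDP-glucuronic acid into UDP-xylose, the donor of the first linker sugar. It stood at 53.6, 54.1 and 53.002 FPKM in cKO libraries, against 76.8, 72.4 and 68.7 FPKM in Control libraries. Here too no cKO value reached a Control value, and Uxs1 fell 1.36-fold (log2 difference -0.43, SE 0.0771, adjusted p = 0.00483). Impad1, a Golgi phosphatase that clears the by-product of sulfation, was not called. It stood at 42.7, 43.5 and 41.5 FPKM in cKO libraries and 52.3, 50.4 and 45.8 FPKM in Control libraries, without overlap (log2 difference -0.21, 95% interval -0.40 to -0.02, adjusted p = 0.118). Summed over the 5 genes, donor supply gave 366.6 to 389.7 FPKM in cKO libraries and 576 to 630.1 FPKM in Control libraries. Papss1 alone lost its call when a library was left out, with adjusted p-values of 0.0689 to 0.0853 without cKO 2, cKO 3 or Control 2.

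In the linker 1 of 5 genes was called, Xylt1, and it was lower in cKO cells. With 7.96% of all tested genes called lower and 9.81% higher, 1 call among 5 genes is near the background. Xylt1 encodes the xylosyltransferase that starts the chain on the core protein, and its loss causes a short-limb skeletal dysplasia in humans. It stood at 50.5, 45.1 and 55.9 FPKM in cKO libraries, against 66.8, 75.04 and 60.5 FPKM in Control libraries. The groups did not overlap. Xylt1 fell 1.34-fold, averaging 50.5 ± 5.41 FPKM in cKO and 67.4 ± 7.302 FPKM in Control libraries (SD, n = 3 each; log2 difference -0.41, SE 0.108, adjusted p = 0.0295). The call was lost without cKO 1, cKO 2, Control 1 or Control 2, with adjusted p-values of 0.0523 to 0.104. B3gat3, which adds the glucuronic acid that ends the linker, stood at 19.3, 22.01 and 20.6 FPKM in cKO libraries and 16.2, 24.4 and 25.2 FPKM in Control libraries. Those values overlapped, and the interval of the log2 difference ran from -0.42 to 0.29 (adjusted p = 0.828). The galactosyltransferases B4galt7 (log2 difference -0.08) and B3galt6 (0.05) and the second xylosyltransferase Xylt2 (0.08) were not called either, at adjusted p-values of 0.744, 0.832 and 0.773. Linker genes summed to 93.6 to 101.8 FPKM in cKO libraries and 105.6 to 126.7 FPKM in Control libraries.

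Chondroitin chain synthesis also had 1 of its 6 genes called, Csgalnact1, again lower in cKO cells. As a count this is near the background, where 7.96% of all tested genes were called lower and 9.81% higher. It encodes the transferase that adds the first N-acetylgalactosamine and so commits the linker to chondroitin, and mice without it have short limbs and less chondroitin sulfate in cartilage. Csgalnact1 (chr8:68356781-68735146) stood at 38.03, 35.999 and 34.6 FPKM in cKO libraries, against 68.4, 60.5 and 51.3 FPKM in Control libraries. Even the lowest Control library lay well above the highest cKO library. It fell 1.66-fold, averaging 36.2 ± 1.75 FPKM in cKO and 60.04 ± 8.57 FPKM in Control libraries (SD, n = 3 each; log2 difference -0.71, SE 0.11, 95% interval -0.95 to -0.46, adjusted p = 0.00227). The entry overlaps 1700125H03Rik, and the sources used here do not say how shared reads were counted. Its isoenzyme Csgalnact2 averaged 19.4 ± 0.669 FPKM in cKO and 18.5 ± 3.08 FPKM in Control libraries (SD, n = 3 each) and was not called (adjusted p = 0.726). The chain is then extended by Chsy1, Chsy3, Chpf and Chpf2, which work in pairs as the chondroitin polymerase. None of these 4 was called. Chsy1 stood at 35.2, 39.9 and 35.99 FPKM in cKO libraries and 38.9, 42.01 and 37.6 FPKM in Control libraries, which overlapped (log2 difference -0.09, 95% interval -0.29 to 0.11, adjusted p = 0.537). Chsy3 had every cKO library below every Control library, at 7.49, 8.08 and 7.88 FPKM in cKO and 9.92, 10.9 and 8.94 FPKM in Control (log2 difference -0.30, adjusted p = 0.0996). Chpf2 lay the other way, at 24.8, 25.8 and 28.2 FPKM in cKO and 18.7, 21.4 and 24.5 FPKM in Control libraries (log2 difference 0.28, adjusted p = 0.125), although its entry overlaps Mir671. Chpf spread most, with 11.3, 12.4 and 14.7 FPKM in cKO and 8.36, 15.6 and 17.7 FPKM in Control libraries (adjusted p = 0.906).

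Chondroitin and dermatan sulfation had no call. Of 8 tested genes limma called 0 in either direction, where it called 7.96% of all tested genes lower and 9.81% higher. As a count this is near the background. At an unadjusted p under 0.05 there were also 0, where 15.2% of all tested genes were lower and 16.1% higher. The authors' deposited table marked 0 as significant, but it tested only 5 of the class, leaving out Chst3, Chst7, Ust, Chst13 and Chst15. Chst11, the main 4-O-sulfotransferase of cartilage, whose loss causes severe chondrodysplasia in mice, stood at 63.9, 55.5 and 61.1 FPKM in cKO libraries and 67.6, 74.01 and 57.97 FPKM in Control libraries. The groups overlapped, and the log2 difference of -0.14 had a 95% interval from -0.37 to 0.10 (adjusted p = 0.415). Chst12, a second 4-O-sulfotransferase, had a log2 difference of 0.24 (adjusted p = 0.372). Chst13, the third, was listed at 0 in every library. The 6-O-sulfotransferases were low: Chst3 stood at 1.699, 1.63 and 1.55 FPKM in cKO libraries and 0.996, 1.23 and 1.498 FPKM in Control libraries (log2 difference 0.23, adjusted p = 0.403). Chst7 had a log2 difference of -0.19 (adjusted p = 0.528). Chst15, which makes a doubly sulfated galactosamine, stood at 0.969, 1.26 and 0.882 FPKM in cKO and 0.762, 0.977 and 0.825 FPKM in Control libraries, was too low to be tested, and overlaps Gm10584. On the dermatan side, the epimerase Dse had a log2 difference of 0.01 with an interval from -0.18 to 0.20 (adjusted p = 0.953), and its relative Dsel one of 0.11 (adjusted p = 0.705). The dermatan 4-O-sulfotransferase Chst14 (log2 difference -0.23, adjusted p = 0.193) and the uronyl 2-O-sulfotransferase Ust (0.13, adjusted p = 0.67) were not called. Class sums were 153.9 to 160.6 FPKM in cKO and 158.1 to 165.7 FPKM in Control libraries.

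Heparan chain synthesis had calls in both directions, with Ext1 higher and Extl1 lower among 5 tested genes. Of all tested genes 9.81% were called higher and 7.96% lower. Ext1 and Ext2 form the heparan polymerase, and loss of either in humans causes multiple cartilage-capped exostoses. Ext1 stood at 44.6, 51.8 and 47.1 FPKM in cKO libraries, against 35.2, 31.4 and 40.7 FPKM in Control libraries. The groups did not overlap, and Ext1 rose 1.34-fold, with 47.8 ± 3.64 FPKM in cKO and 35.8 ± 4.68 FPKM in Control libraries (SD, n = 3 each; log2 difference 0.41, SE 0.109, adjusted p = 0.0295). Its partner Ext2 stood at 54.2, 60.9 and 62.7 FPKM in cKO libraries and 61.99, 65.8 and 69.98 FPKM in Control libraries. Here the groups overlapped and the log2 difference was -0.15, with an interval from -0.35 to 0.05 (adjusted p = 0.282). Extl1, an exostosin-like transferase of the same family, stood at 10.2, 7.85 and 9.24 FPKM in cKO libraries, against 12.6, 18.3 and 13.2 FPKM in Control libraries. Control 2 was the highest, and no cKO value reached a Control value. Extl1, whose upstream sequence is printed above, fell 1.61-fold (log2 difference -0.62, SE 0.155, adjusted p = 0.0224). Extl2 (log2 difference 0.02, adjusted p = 0.944) and Extl3, whose enzyme starts the heparan chain (-0.07, adjusted p = 0.7), were not called. Ext1 lost its call without cKO 1, cKO 2, cKO 3, Control 1 or Control 2 (adjusted p-values of 0.0501 to 0.105), and Extl1 without cKO 2, cKO 3 or Control 2 (0.0653 to 0.0793).

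Heparan sulfation and epimerization had 1 call among 6 tested genes, Glce, which was lower in cKO cells. That count too is near the background of 7.96% of all tested genes called lower and 9.81% higher. Glce encodes the epimerase that turns glucuronic into iduronic acid in the heparan chain. It stood at 29.9, 30.4 and 28.6 FPKM in cKO libraries, against 40.8, 37.99 and 36.6 FPKM in Control libraries. The groups lay clearly apart, and Glce fell 1.298-fold, averaging 29.6 ± 0.95 FPKM in cKO and 38.5 ± 2.14 FPKM in Control libraries (SD, n = 3 each; log2 difference -0.36, SE 0.0842, adjusted p = 0.0163). Without cKO 1 or cKO 3 its adjusted p was 0.0522 to 0.0727. Ndst1, the N-deacetylase and N-sulfotransferase whose action comes before the other heparan modifications, stood at 23.9, 23.8 and 24.1 FPKM in cKO libraries and 16.6, 20.02 and 21.3 FPKM in Control libraries. All cKO values lay above all Control values, but limma did not call it (log2 difference 0.31, 95% interval 0.06 to 0.55, adjusted p = 0.0817). The authors' deposited table gives Ndst1 a q-value of 0.0300 and marks it as significant. Hs6st2, a 6-O-sulfotransferase and the most abundant member of the class, stood at 56.4, 61.2 and 64.6 FPKM in cKO libraries and 65.6, 50.9 and 61.03 FPKM in Control libraries, which overlapped (log2 difference 0.04, interval -0.20 to 0.28, adjusted p = 0.833). Hs6st1 (0.19, adjusted p = 0.333), Ndst2 (0.07, adjusted p = 0.771) and the 2-O-sulfotransferase Hs2st1 (-0.08, adjusted p = 0.709) were not called on that log2 scale. The 3-O-sulfotransferases, which make rare marks such as the antithrombin site, were below 1 FPKM. Hs3st1 was at 0, 0.214 and 0 FPKM in cKO libraries and at 0 in every Control library. Hs3st3a1 stood between 0.175 and 0.857 FPKM in cKO and between 0.0886 and 0.497 FPKM in Control libraries, and Hs3st3b1 between 0.112 and 0.331 FPKM in cKO and between 0.285 and 0.694 FPKM in Control libraries. The entry of Hs3st3a1 overlaps F930015N05Rik.

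The extracellular 6-O-endosulfatases moved in opposite directions. Both were called, where limma called 9.81% of all tested genes higher and 7.96% lower. Both enzymes cut 6-O-sulfate from finished heparan chains at the cell surface and so alter growth factor binding. Sulf1 stood at 79.02, 77.4 and 72.6 FPKM in cKO libraries, against 51.8, 53.1 and 55.8 FPKM in Control libraries. All cKO values were higher, and Sulf1 rose 1.42-fold, averaging 76.3 ± 3.36 FPKM in cKO and 53.6 ± 2.04 FPKM in Control libraries (SD, n = 3 each; log2 difference 0.50, SE 0.0771, 95% interval 0.33 to 0.68, adjusted p = 0.0021). Sulf2 stood at 33.4, 34.7 and 35.03 FPKM in cKO libraries, against 39.6, 45.4 and 44.1 FPKM in Control libraries. All cKO values were lower, and Sulf2 fell 1.25-fold (log2 difference -0.31, SE 0.0858, adjusted p = 0.0341). Only Sulf2 lost its call when a library was left out, at adjusted p-values of 0.0751 to 0.116 without cKO 1, cKO 2, cKO 3, Control 2 or Control 3. The sum of both was 107.6 to 112.4 FPKM in cKO and 91.4 to 99.96 FPKM in Control libraries.

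**Figure D3:**
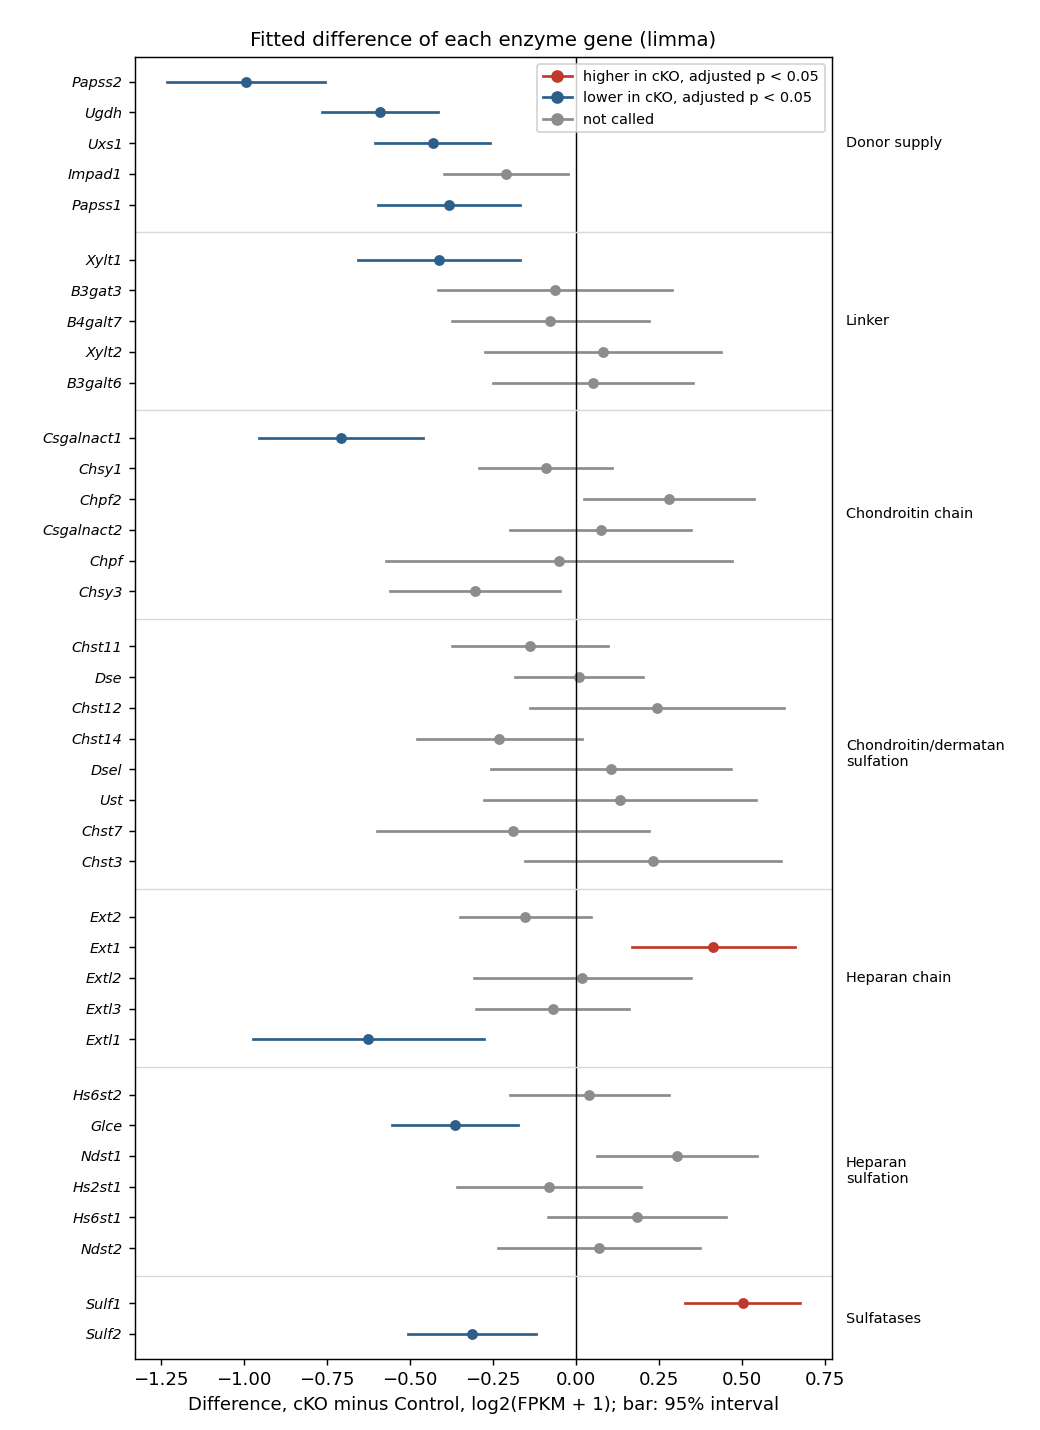
Fitted difference of each tested enzyme gene, cKO minus Control, on the log2(FPKM + 1) scale, with 95% intervals from limma. Blue marks genes called lower in cKO libraries, red genes called higher and grey genes not called. Papss2 lies farthest left at -0.99 and Sulf1 farthest right at 0.50, while the intervals of all 8 chondroitin and dermatan sulfation genes cross 0.

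Isoenzymes of a step were also set against each other within each library, as the share of the step's summed FPKM. These shares use the same values as the differences above and were not tested. Sulf1 made up 70.3, 69.0 and 67.4% of the endosulfatase sum in cKO libraries, against 56.7, 53.9 and 55.8% in Control libraries. Ext1 made up 45.2, 45.9 and 42.9% of the Ext1 and Ext2 sum in cKO libraries, against 36.2, 32.3 and 36.8% in Control libraries. Csgalnact1 made up 67.1, 64.7 and 63.5% of its pair in cKO libraries, against 75.7, 77.8 and 76.0% in Control libraries. In none of these 3 pairs did the groups overlap. Papss2 kept the larger part of the PAPS synthase sum in both groups, 81.1 to 82.2% in cKO and 85.7 to 88.1% in Control libraries, and Xylt1 that of its pair, 89.2 to 90.6% in cKO and 91.2 to 93.5% in Control libraries, again without overlap. The other steps overlapped. Enzymes for 4-O-sulfation (Chst11, Chst12 and Chst13) made up 96.4 ± 0.415% of the 4-O and 6-O sum in cKO and 96.6 ± 0.468% in Control libraries (SD, n = 3 each). Chsy1 held 44.1 ± 2.44% of the polymerase sum in cKO and 46.8 ± 4.46% in Control libraries (SD, n = 3 each). Mean shares in cKO and Control libraries were 73.7 and 78.3% for Chst11 among the 4-O enzymes, 84.4 and 85.4% for Dse, 77.5 and 74.3% for Ndst1 and 88.0 and 89.1% for Hs6st2.

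**Figure D4:**
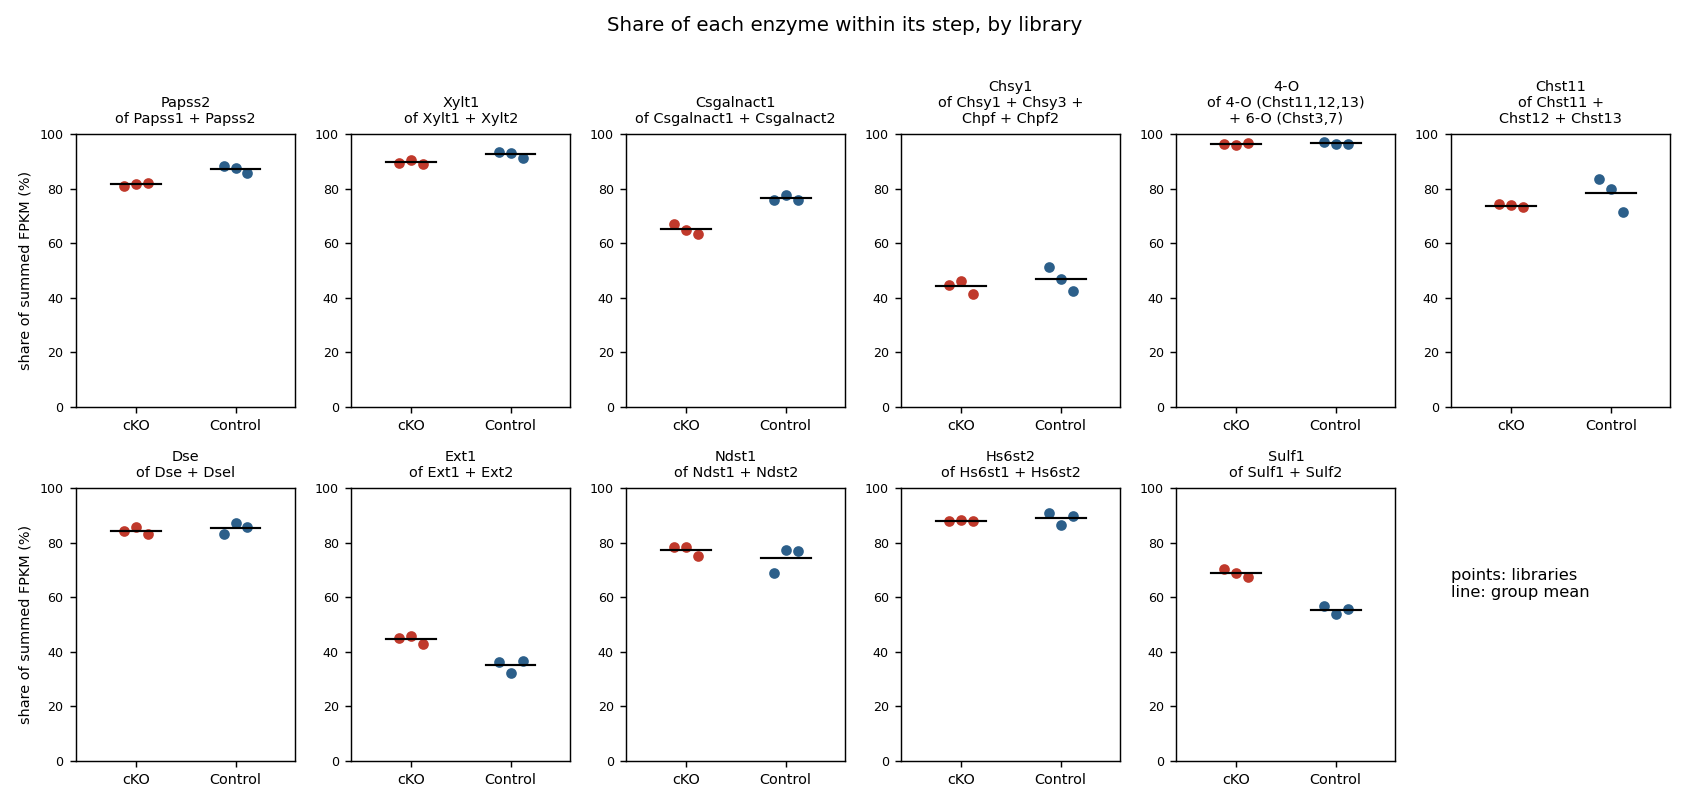
Share of an enzyme in the summed FPKM of its step, in percent, with 1 point per library, cKO left and Control right in each panel, and a line at the group mean. Sulf1 and Ext1 hold a larger share in cKO libraries and Papss2, Xylt1 and Csgalnact1 a smaller one, without overlap between groups, while the other 6 panels overlap.

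Genes around the pathway were read from lists chosen by role. A list of 19 genes for other donor steps and transport also held Fam20b, Pxylp1, Tpst1 and Tpst2, which have other roles. Of the 19 genes 18 were tested, and 2 were called lower and 1 higher. These counts lie near the share over all tested genes, of which 7.96% were called lower and 9.81% higher. The median log2 difference of the list was -0.05. The xylose kinase Fam20b, whose phosphate on the linker promotes its completion, stood at 38.9, 36.996 and 37.7 FPKM in cKO libraries, against 53.7, 57.5 and 51.1 FPKM in Control libraries, and fell 1.43-fold (adjusted p = 0.00275). The phosphatase that removes that phosphate, Pxylp1 (listed under its older symbol Acpl2), stood at 20.7, 24.2 and 21.2 FPKM in cKO libraries, against 9.21, 9.16 and 13.7 FPKM in Control libraries, and rose 2.06-fold (adjusted p = 0.002). Neither pair of groups overlapped, and the kinase and the phosphatase thus lay on opposite sides. Gfpt2, which carries out the first step of hexosamine synthesis, stood at 23.5, 20.3 and 25.9 FPKM in cKO libraries, against 41.1, 44.8 and 38.6 FPKM in Control libraries, and fell 1.79-fold (adjusted p = 0.000963).

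Other sulfotransferases and keratan sulfate enzymes were mostly below the level for testing, and 6 of 20 were tested. Limma called 0 of them, 0 had an unadjusted p under 0.05, and the authors' deposited table marked 0 of the 3 it tested. Over all tested genes limma called 7.96% lower and 9.81% higher. B4galt1, a galactosyltransferase, averaged 30.6 ± 3.67 FPKM in cKO and 26.5 ± 0.997 FPKM in Control libraries, and B3gnt2, an N-acetylglucosaminyltransferase, 14.5 ± 0.851 FPKM in cKO and 14.3 ± 0.895 FPKM in Control libraries (SD, n = 3 each). Hs3st2, Hs3st4, Hs3st5, Hs3st6 and Chst4 were at 0 in every library.

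Genes for glycosaminoglycan breakdown mostly had positive differences in cKO cells. Of 22 genes 20 were tested, and limma called 5 higher and 0 lower, where it called 9.81% of all tested genes higher and 7.96% lower. At an unadjusted p under 0.05, 9 were higher and 0 lower, where 16.1% of all tested genes were higher and 15.2% lower. The authors' deposited table also marked 5 higher and 0 lower. The median log2 difference was 0.21, against 0.000386 for all tested genes, and 18 of the 20 lay above 0. Cemip, which takes part in hyaluronan breakdown (listed as 9930013L23Rik), stood at 12.6, 13.9 and 14.2 FPKM in cKO libraries, against 5.61, 3.55 and 6.58 FPKM in Control libraries, and rose 2.59-fold (adjusted p = 0.00144). Tmem2, a cell surface hyaluronidase in mice, stood at 16.6, 17.9 and 14.9 FPKM in cKO libraries, against 10.5, 10.4 and 11.4 FPKM in Control libraries, and rose 1.53-fold (adjusted p = 0.00618). In both genes every cKO library exceeded every Control library. The lysosomal beta-galactosidase Glb1 stood at 29.5, 29.3 and 27.9 FPKM in cKO libraries, against 19.2, 19.8 and 17.9 FPKM in Control libraries, and rose 1.52-fold (adjusted p = 0.00182). Ids, the iduronate-2-sulfatase that acts on dermatan and heparan sulfate, stood at 32.2, 30.3 and 31.4 FPKM in cKO libraries, against 22.7, 18.03 and 21.8 FPKM in Control libraries, and rose 1.501-fold (adjusted p = 0.00548). The fifth called gene was Hexa, a subunit of beta-hexosaminidase (1.34-fold higher, adjusted p = 0.0375), whose call was lost without cKO 1, cKO 3, Control 2 or Control 3 (adjusted p-values of 0.0585 to 0.126).

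Among the core proteins that carry the chains, 20 of 22 were tested and 4 were called lower and 4 higher. Of all tested genes 7.96% were called lower and 9.81% higher. The median log2 difference of the core proteins was 0.10. Acan, the chondroitin sulfate proteoglycan aggrecan, stood at 699, 624 and 653 FPKM in cKO libraries, against 1095, 1356 and 1001 FPKM in Control libraries, and fell 1.75-fold (adjusted p = 0.0011). Cspg4, a membrane chondroitin sulfate proteoglycan, fell 1.67-fold (adjusted p = 0.0151). Agrn, the heparan sulfate proteoglycan agrin, stood at 18.1, 18.03 and 18.1 FPKM in cKO libraries, against 9.85, 10.9 and 9.36 FPKM in Control libraries, and rose 1.797-fold (adjusted p = 0.000737). Col18a1, a basement membrane collagen that carries heparan sulfate, rose 1.72-fold (adjusted p = 0.025). Epyc and Sdc4 were the other genes called lower, and Dcn and Sdc2 the others called higher, so chondroitin and heparan carriers stood on both sides. Calls were lost for Cspg4 without cKO 1 or Control 2 (adjusted p-values of 0.0568 to 0.0585), for Epyc without cKO 1, cKO 3 or Control 2 (0.0506 to 0.0539), and for Col18a1 without any library but Control 3 (0.055 to 0.0833). Without cKO 1 or Control 2 the core proteins called numbered 5.

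The authors' own test, made on the same libraries, made nearly the same calls among the members. Of the 42 members 34 had a test in the authors' deposited table, 9 were lower and 3 higher at a q-value under 0.05, where 11.2% of its 9701 tested genes were lower and 11.7% higher. It shared the 11 members called by limma, with the same directions, and added Ndst1. Replicates of the tested members differed by a median coefficient of variation of 7.11% in cKO and 12.1% in Control libraries, against 10.01% in cKO and 12.6% in Control libraries over all tested genes. Control 1 was the lowest of the 6 libraries for 10 of the 37 members, B3gat3, Chpf and Chst12 among them.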

How the data were processed

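RNA was measured in 3 Uhrf1 cKO and 3 Control libraries of primary chondrocytes. A stranded mRNA kit was used, per the labels' protocols. Per the submitters' processing notes, TopHat, Cufflinks and the mm10 build were used; the sources used here do not give versions, annotation, strand setting or scaling. The authors deposited FPKM per library and per group mean. Their table also holds, per the file headers, a p-value, a q-value, a log2 fold change and the score of the test. Dates stood in place of 27 symbols. Overlapping genes are uncertain.

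Members and gene lists were chosen with earlier results of these data known. The test was limma 3.58.1 under R 4.3.3, with eBayes set to trend and robust, for genes that reached 1 FPKM in at least 2 libraries. It used log2(FPKM + 1), a scale that understates the change of low genes. Tests were two-sided, with Benjamini-Hochberg adjustment over all 11911 genes tested and a threshold of 0.05; intervals are 95%. The procedure was also run on simulated data with known shifts, as a check of the code only. FPKM are not counts, so depth is unknown and no count test was used. An exact 0 may be a failed estimate. Folds are ratios of group mean FPKM. Coordinates are counted from 1. Values per library are given for every called member and for the most abundant uncalled member of each class, and for others where isoenzymes are compared or where they were chosen after their values were seen. Of each related list up to 4 called genes with the largest differences are named, or the 2 most abundant where fewer than 2 were called.

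The alternatives tried were a stricter threshold, a minimum difference, other filters, pseudocounts and scalings, the authors' deposited test, a replicate block and leaving out each library; a covariate for Y-linked transcript was added after seeing the data.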

Additional observations from a re-analysis of the deposited data

How the results depend on the processing

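The same 11 members, 9 lower and 2 higher in cKO cells, were called with filters of 0.1 FPKM, 5 FPKM or none, with pseudocounts of 0.1 and 0.5, and under upper-quartile and median-of-ratios scaling, which moved the median of all genes by 0.0187 and 0.00597 on the log2 scale. No called member changed direction in any setting. At an adjusted p under 0.01, 4 members were lower (Ugdh, Uxs1, Papss2, Csgalnact1) and 1 higher (Sulf1). That left 0 calls in the linker, 0 in heparan chain synthesis, 0 in heparan sulfation and 1 in the endosulfatases, and 5 among core proteins, and 377 lower and 647 higher over all genes. With a difference of at least 1 on the log2 scale, 0 members were lower and 0 higher. Counts were then 0 in donor supply, 0 in the linker, 0 in chondroitin chain synthesis, 0 in heparan chain synthesis, 0 in heparan sulfation, 0 in the endosulfatases, 0 in other donor and transport genes, 0 among core proteins and 1 in breakdown, and 75 lower and 431 higher over all genes. Papss2 came nearest, at -0.99 on the log2(FPKM + 1) scale; it passed that limit in the authors' deposited table (-1.004) and with the Y-linked covariate, and lay between -1.0997 and -0.924 when single libraries were left out. The authors' deposited test called 2 heparan sulfation genes. Leaving out each library gave 5 to 8 members lower and 1 to 2 higher. By class this was 0 to 1 in the linker, 0 to 2 in heparan chain synthesis, 0 to 1 in heparan sulfation, 1 to 2 in the endosulfatases and 5 to 10 among core proteins. Ugdh, Uxs1, Papss2, Csgalnact1 and Sulf1 were called in all 6 of these fits, which have fewer samples. Over all genes these fits called 503 (without cKO 3) to 931 (without Control 1) lower. They called 765 (without cKO 3) to 1095 (without Control 3) higher. With all 6 libraries 948 were lower and 1168 higher. Deviations of libraries with the same replicate number correlated at 0.169, 0.0258 and -0.0443. The same number was the best match for cKO 1, while cKO 2 and cKO 3 correlated best with another number. With 3 libraries a group, these correlations cannot settle whether replicate numbers pair the libraries. A fit with replicate number as a block called 8 members lower and 2 higher, with 0 linker calls because Xylt1 was not called (adjusted p = 0.0519). Over all genes the block fit called 946 lower and 1151 higher. With a Y-linked transcript covariate, chosen after seeing the data, 8 were lower and 2 higher, Papss1 not being called (adjusted p = 0.0571). Over all genes the covariate fit called 699 lower and 955 higher. With 3 libraries a group and unknown depth, genes near 1 FPKM, such as Chst3, Chst7 and Chst15, have little precision, and small differences of the other enzymes could be missed.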
